A study of Danio rerio with 16 samples.

Results

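Whole zebrafish embryos (Danio rerio, genotype WT in the labels) that carried the Bik-1 LNA were followed from 14 to 18 hours post fertilization (hpf). A locked nucleic acid (LNA) is a short antisense oligonucleotide with modified sugars that binds RNA tightly, and this one is named for BHIKHARI, a retrovirus resident in the zebrafish genome. Knockdown embryos at 18 hpf, with 2 libraries, were set against knockdown embryos at 14 hpf, with 2 libraries. These 4 libraries were chosen by the labels alone out of the 16 in the series. Control embryos carrying a scrambled LNA, with 2 libraries at 18 hpf and 2 at 14 hpf, gave the same stage step without the Bik-1 LNA. All groups had been injected at 0 hpf, were sampled as whole embryos and were sequenced from polyadenylated RNA in directional libraries. How many embryos went into a library, and whether replicates came from separate injections or clutches, is not given in the labels, so p-values rest on a spread between libraries that may be technical only.

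The hours between these times belong to the segmentation period, when somites bud from the presomitic mesoderm, the tail extends, muscle fibres begin to assemble sarcomeres and the first neurons send out axons. Primitive blood, vessels and the heart tube arise from mesoderm at the same stages, and the notochord lays down a sheath of collagen. Genes of gastrulation, such as Nodal and dorsoventral signals, are at the same time being switched off.

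Library totals were 6840271 and 5352462 counts at 18 hpf and 4399855 and 5468473 counts at 14 hpf in the knockdown. Genes with at least 1 count numbered 21566 and 21084 at 18 hpf and 19977 and 20517 at 14 hpf. On the first principal component of all 16 libraries, which held 65.9% of the variance, the knockdown libraries lay at 113.9 and 109.9 at 18 hpf and at 18.3 and 32.4 at 14 hpf, while the controls lay at 120.2 and 122 at 18 hpf and at 40.5 and 48.6 at 14 hpf. Each of the defining markers looked up for muscle, red blood, notochord, hatching gland, epidermis, neural tissue, neural crest, endothelium, endoderm and germ cells had counts in both knockdown libraries at 18 hpf, and at 14 hpf only hbbe3 was at 0, in replicate 1. Levels below are CPM, counts scaled to a common library total by TMM and not corrected for gene length, so they are compared between libraries and not between genes. A pair of values is replicate 1 and replicate 2. Among the markers sox17, of endoderm, was near 0, at 0.872 and 0.556 CPM at 18 hpf, against 0.215 and 0.346 CPM at 14 hpf. A gene was called, and is said to rise or fall, where edgeR's quasi-likelihood test gave an adjusted p (Benjamini-Hochberg, over genes and repeat families together) under 0.05. In whole embryos fewer cells of a type and less RNA per cell cannot be told apart.

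The RNA named by the LNA was checked first. BHIKHARI_LTR, the long terminal repeat of the retrovirus, stood at 36.2 and 34.8 CPM in knockdown and 98.9 and 104 CPM in control libraries at 18 hpf. At 14 hpf it stood at 51.5 and 53.5 CPM in knockdown and 214 and 216 CPM in control libraries. The knockdown libraries were the lower ones at both times, without overlap.

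Between 14 and 18 hpf the knockdown embryos gained muscle, globin, collagen and neuron transcripts and lost transcripts of the gastrula and the growing tailbud. Of 16894 genes tested, 2290 (13.6%) were called, 1536 higher (9.09%) and 754 lower (4.46%) at 18 hpf. For every called gene both 18 hpf libraries lay on the same side of both 14 hpf libraries. The test itself favours such genes, so this is not separate support for the calls. Among called genes the rises were the larger changes, with a median log2 fold change of 1.83, against -0.80 among genes that fell. These medians cover called genes only and do not give the size of change over all genes. A change of at least 2-fold was seen in 1140 of the genes that rose (6.75% of all tested) and 305 of those that fell (1.81%). There were 90 genes that rose without a single count at 14 hpf and 5 that fell to 0 counts at 18 hpf. Such genes passed the low-count filter only through another group in which they were high. Both counts, and the medians of the called genes, therefore depend on that filter. The number called was 959 without 18 hpf replicate 1, 1135 without 18 hpf replicate 2, 810 without 14 hpf replicate 1 and 1214 without 14 hpf replicate 2. The median log2 change of all genes was -0.007, and the medians of gene lists below stand against it. Some genes belong to more than 1 list, so the counts of different lists are not independent. Where leaving out a library moved the count of a whole list by more than 1.5 times, the count without it follows, while counts of sub-groups within a list were not recounted.

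**Figure D1:**
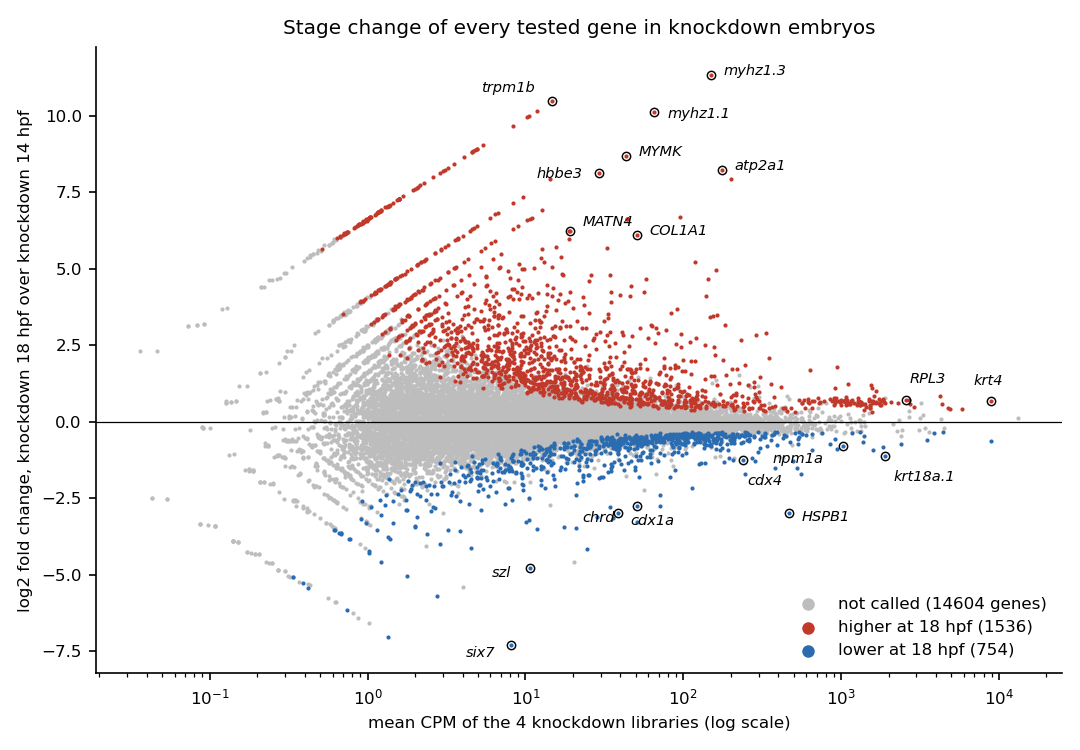
Each point is 1 of 16894 genes, with its mean CPM over the 4 knockdown libraries on a log axis and its log2 fold change, 18 hpf over 14 hpf, on the other. The 1536 genes called higher (red) reach a log2 fold change of 11.32 in myhz1.3, while the 754 called lower (blue) reach -7.29 in six7 and crowd within a few log2 units of 0.

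The largest rises were in fast muscle. myhz1.3, a fast myosin heavy chain, stood at 306 and 291 CPM at 18 hpf, against 0.215 and 0 CPM at 14 hpf. It had 3675 counts in the 18 hpf libraries together and 1 count in the 14 hpf libraries, a ratio of 3119 (95% counting interval 559 to 123210). myhz1.1 had 138 and 125 CPM at 18 hpf, against 0.215 and 0 CPM at 14 hpf, and myhz1.2 had 28.1 and 22.8 CPM at 18 hpf, against 0 and 0.346 CPM at 14 hpf. The paralogs myhz1.1, myhz1.2 and myhz1.3 are nearly identical, so their counts may share reads and their separate levels are uncertain. myhz2, a further fast myosin heavy chain, had 24.4 and 22.8 CPM at 18 hpf and no count at 14 hpf, at least 82.3-fold higher with 3 counts over the group taken as the limit of 0. On the same limit MYOM2, a protein of the M line that ties myosin filaments together, was at least 71.3-fold higher and SMPX, a small muscle protein, at least 73.3-fold higher.

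Further steps of fast fibre building moved with the myosins. atp2a1, the calcium pump of the fast fibre's sarcoplasmic reticulum, had 356 and 349 CPM at 18 hpf, against 0.646 and 1.56 CPM at 14 hpf (log2 fold change 8.24, SE 0.31, adjusted p = 3.5e-10). MYL11 (ENSDARG00000053254), the fast regulatory light chain, had 424 and 372 CPM at 18 hpf, against 0.431 and 2.60 CPM at 14 hpf (log2 fold change 7.92, SE 0.35, adjusted p = 3.1e-08). MYMK, known as myomaker, is the membrane protein that lets myoblasts fuse. It had 82.9 and 91.0 CPM at 18 hpf, against 0.215 and 0.173 CPM at 14 hpf, with a count ratio of 450.2 (95% counting interval 124 to 3722). In these genes the 14 hpf libraries were at or near 0 and both 18 hpf libraries were high.

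Of 57 sarcomere genes tested, 42 rose and none fell, with a median log2 change of 2.44. Thick and thin filament genes gave 23 of 31, with MYL1 (ENSDARG00000017441), an essential light chain, at 124 and 101.2 CPM at 18 hpf, against 3.88 and 4.85 CPM at 14 hpf (log2 fold change 4.67, SE 0.23, adjusted p = 1.6e-09). Genes of the Z disc, M line and titin gave 19 of 26. NEXN, an actin-binding Z disc protein, was already present at 14 hpf and had 126 and 118 CPM at 18 hpf, against 25.0 and 32.0 CPM at 14 hpf (log2 fold change 2.09, SE 0.16, adjusted p = 2.8e-07). Together the sarcomere list took 0.784% and 0.735% of CPM at 18 hpf, against 0.191% and 0.208% at 14 hpf. Of 24 genes of muscle excitation and energy supply 17 rose, none fell and the median was 2.85. Calcium release and pump genes gave 11 of 12. CHRNG, the embryonic subunit of the muscle acetylcholine receptor, had 42.6 and 38.5 CPM at 18 hpf, against 4.74 and 5.02 CPM at 14 hpf (log2 fold change 3.05, SE 0.30, adjusted p = 7.4e-06). ckma, the muscle creatine kinase, had 98.9 and 76.7 CPM at 18 hpf, against 0.431 and 1.21 CPM at 14 hpf (log2 fold change 6.64, SE 0.53, adjusted p = 2.0e-06), and the energy supply genes gave 6 of 12.

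Regulators of muscle fate were mixed. Of 22 myogenic regulators 8 rose and 2 fell (0 without 18 hpf replicate 1 or 14 hpf replicate 1, and 1 without either other knockdown library), and the median was 0.94. SOX6, a repressor of slow muscle genes in fast fibres, had 39 and 47.4 CPM at 18 hpf, against 4.52 and 5.72 CPM at 14 hpf (log2 fold change 3.07, SE 0.29, adjusted p = 3.1e-06). MEF2D had 157 and 142 CPM at 18 hpf, against 66.99 and 69.8 CPM at 14 hpf and MEF2C (ENSDARG00000009418) had 34.5 and 35.6 CPM at 18 hpf, against 11.6 and 11.3 CPM at 14 hpf, log2 fold changes of 1.13 (SE 0.15, adjusted p = 9.6e-05) and 1.61 (SE 0.25, adjusted p = 0.00036). Both encode factors that act with the myogenic bHLH proteins on contractile genes. MEOX1, a homeobox gene of the early somite, had 136 and 140.3 CPM at 18 hpf, against 214 and 218 CPM at 14 hpf and did not pass (adjusted p = 0.16).

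Genes of the tailbud and presomitic mesoderm went the other way. Of 26 tested, 10 fell (3 without 18 hpf replicate 1, 5 without 14 hpf replicate 1 and 6 without 14 hpf replicate 2) and 2 rose (0 without 18 hpf replicate 1, 18 hpf replicate 2, 14 hpf replicate 1 or 14 hpf replicate 2), with a median of -0.57. cdx4, a caudal homeobox gene of the posterior body, had 145 and 139 CPM at 18 hpf, against 345 and 328 CPM at 14 hpf (log2 fold change -1.25, SE 0.11, adjusted p = 1.9e-06). cdx1a had 6.40 and 11.3 CPM at 18 hpf, against 74.3 and 62.7 CPM at 14 hpf (log2 fold change -2.97, SE 0.27, adjusted p = 7.5e-06). Both 18 hpf libraries lay well below both 14 hpf libraries in either gene. msgn1, a bHLH factor of the presomitic mesoderm, had 143 and 166 CPM at 18 hpf, against 225 and 215 CPM at 14 hpf (log2 fold change -0.51, SE 0.12, adjusted p = 0.011). WNT8A (ENSDARG00000078507), a posterior Wnt ligand, had 3.78 and 4.82 CPM at 18 hpf, against 11.6 and 11.9 CPM at 14 hpf (log2 fold change -1.47, SE 0.32, adjusted p = 0.0062). The msgn1 call was lost without 18 hpf replicate 1 or 14 hpf replicate 1 (adjusted p = 0.097 to 0.15), and the WNT8A call without 18 hpf replicate 1 (adjusted p = 0.085).

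Clock and somite boundary genes were called more often than all genes, 31% against 13.6%, and more of them fell than rose. Of 29 clock and somite boundary genes, 7 fell (3 without 18 hpf replicate 1 or 14 hpf replicate 1) and 2 rose (0 without 18 hpf replicate 1, 18 hpf replicate 2, 14 hpf replicate 1 or 14 hpf replicate 2). Among the 15 cyclic and Notch genes 2 fell and none rose, with a median of -0.07, while the 14 genes of the wave front and the boundary gave 5 falls and 2 rises with a median of -0.68. FGF8 (ENSDARG00000003399), the ligand that forms the front's gradient, had 38.7 and 25.8 CPM at 18 hpf, against 86.6 and 66.5 CPM at 14 hpf (log2 fold change -1.24, SE 0.23, adjusted p = 0.0021). A second FGF8 gene (ENSDARG00000039615) rose, a call lost when any 1 knockdown library of 14 or 18 hpf was left out. her11, a Hairy-related repressor of the clock, had 3.63 and 4.82 CPM at 18 hpf, against 11.8 and 11.8 CPM at 14 hpf (log2 fold change -1.49, SE 0.27, adjusted p = 0.0017). EFNB2 (ENSDARG00000074050), an ephrin of the somite border, had 26.03 and 28.0 CPM at 18 hpf, against 52.1 and 49.2 CPM at 14 hpf (log2 fold change -0.91, SE 0.14, adjusted p = 0.00037). NOTCH3 had 349.5 and 382 CPM at 18 hpf, against 346 and 345 CPM at 14 hpf (adjusted p = 0.62). LFNG, the Fringe enzyme that modifies Notch, had 319 and 360.4 CPM at 18 hpf, against 345 and 366 CPM at 14 hpf (adjusted p = 0.73).

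In the notochord list the rises lay among sheath and vacuole genes. Of 30 genes, 9 rose (5 without 18 hpf replicate 2 or 14 hpf replicate 1) and 5 fell (2 without 18 hpf replicate 1, 18 hpf replicate 2 or 14 hpf replicate 1 and 3 without 14 hpf replicate 2). All 9 rises and 4 of the 5 falls were among the 23 sheath and vacuole genes, whose median was 0.73. The 7 transcription factors and signals gave 1 fall, no rise and a median of -0.62. COL9A2, a collagen of the sheath, had 179.7 and 198 CPM at 18 hpf, against 27.8 and 34.0 CPM at 14 hpf (log2 fold change 2.61, SE 0.25, adjusted p = 9.2e-06). COL11A2 had 31.1 and 35.4 CPM at 18 hpf, against 1.94 and 0.52 CPM at 14 hpf (log2 fold change 4.81, SE 0.49, adjusted p = 7.1e-06). COL11A1 had 338 and 330.2 CPM at 18 hpf, against 99.5 and 104 CPM at 14 hpf (log2 fold change 1.72, SE 0.17, adjusted p = 4.3e-06). CCN2, a matrix-associated signalling protein, had 83.2 and 70.6 CPM at 18 hpf, against 13.1 and 14.2 CPM at 14 hpf (log2 fold change 2.49, SE 0.23, adjusted p = 5.9e-06). In the Hedgehog pathway, which the notochord feeds with its ligand, 4 of 21 genes rose (1 without 18 hpf replicate 2 or 14 hpf replicate 1) and none fell. The share called, 19%, stands against 13.6% of all genes. GAS1 (ENSDARG00000067984), a Hedgehog co-receptor, had 81.1 and 70.23 CPM at 18 hpf, against 38.3 and 42.4 CPM at 14 hpf (log2 fold change 0.91, SE 0.14, adjusted p = 0.00032). SMO, the signal transducer, had 133 and 154 CPM at 18 hpf, against 175 and 189.8 CPM at 14 hpf (adjusted p = 0.073).

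Extracellular matrix genes, a list that shares some collagens and laminins with the notochord list, rose more often than they fell. Of 60 extracellular matrix genes 28 rose and 7 fell (2 without 18 hpf replicate 1 and 3 without 18 hpf replicate 2 or 14 hpf replicate 1), with a median of 1.01. COL1A1, a chain of type I collagen of skin and later bone, had 107 and 92.3 CPM at 18 hpf, against 1.72 and 1.21 CPM at 14 hpf (log2 fold change 6.09, SE 0.42, adjusted p = 7.8e-07). Its partner chain COL1A2 had 175 and 163 CPM at 18 hpf, against 9.26 and 16.6 CPM at 14 hpf (log2 fold change 3.69, SE 0.28, adjusted p = 1.2e-06). POSTN (ENSDARG00000104267), or periostin, had 101.3 and 88.0 CPM at 18 hpf, against 9.91 and 12.8 CPM at 14 hpf (log2 fold change 3.05, SE 0.20, adjusted p = 6.8e-08). COL14A1 had 60.2 and 53.7 CPM at 18 hpf, against 5.17 and 6.24 CPM at 14 hpf (log2 fold change 3.31, SE 0.22, adjusted p = 6.8e-08). All 4 had low but measurable levels at 14 hpf and higher ones in both 18 hpf libraries. The list's share of CPM was 0.648% and 0.654% at 18 hpf, against 0.366% and 0.392% at 14 hpf.

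The hatching gland, a prechordal derivative that will digest the egg envelope, gave 6 falls (3 without 18 hpf replicate 1, 18 hpf replicate 2 or 14 hpf replicate 1) and 1 rise among 13 genes. he1.2, a hatching enzyme, had 68.6 and 56.7 CPM at 18 hpf, against 122 and 125 CPM at 14 hpf (log2 fold change -0.98, SE 0.17, adjusted p = 0.00089). The gene ctslb, a cathepsin of the gland, had 14.4 and 11.5 CPM at 18 hpf, against 30.2 and 31.2 CPM at 14 hpf (log2 fold change -1.24, SE 0.26, adjusted p = 0.004, lost without 18 hpf replicate 2 (adjusted p = 0.059)). GSC, the prechordal plate homeobox gene goosecoid, had no count at 18 hpf and 1.94 and 1.04 CPM at 14 hpf, at least 5.89-fold lower. he1.3, a paralog of he1.2, went against the list with 18.5 and 20.01 CPM at 18 hpf, against 0.215 and 0 CPM at 14 hpf and a count ratio of 199 (95% counting interval 35.4 to 7910).

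**Figure D2:**
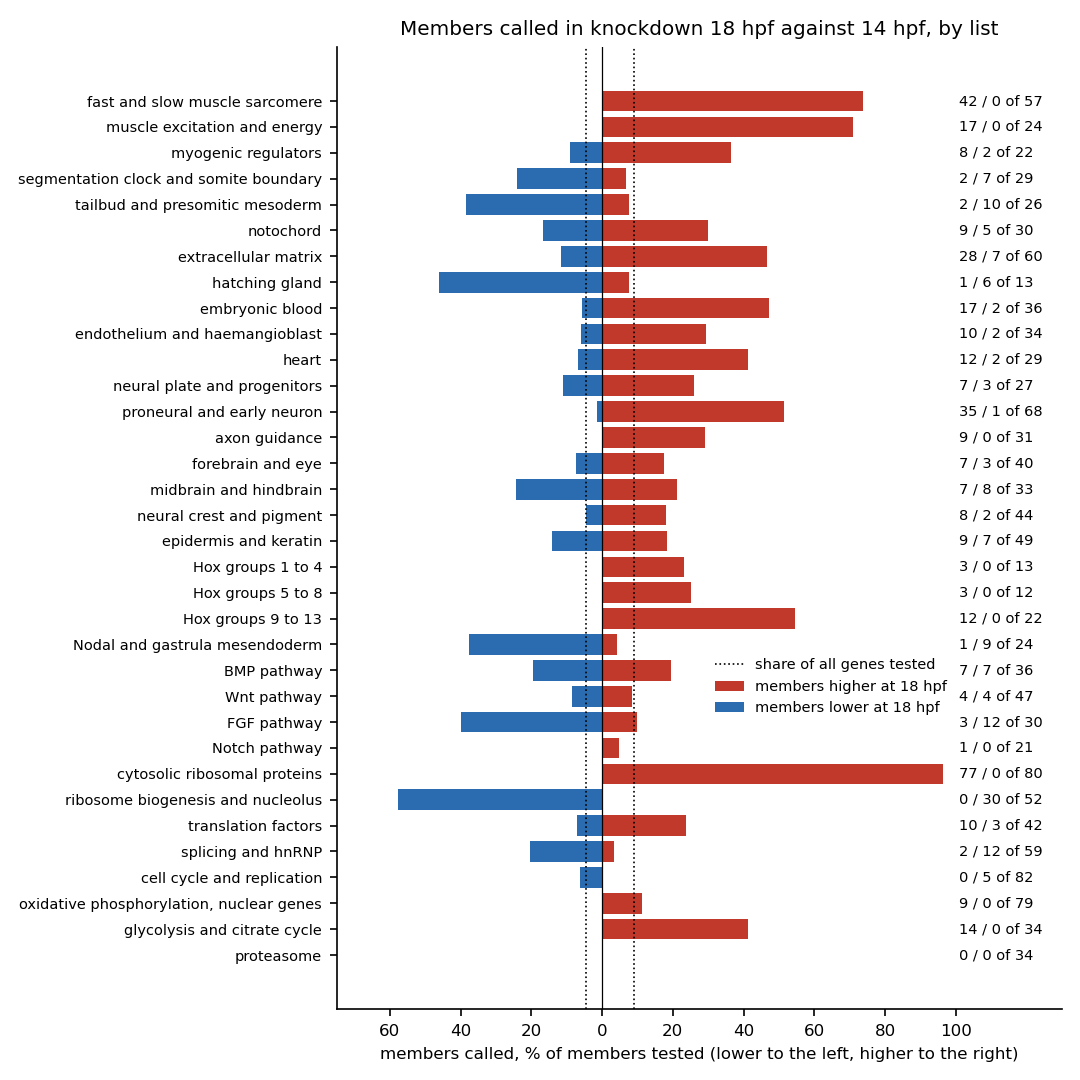
Bars give the percent of each list's tested members called higher (right, red) or lower (left, blue) in knockdown embryos at 18 hpf against 14 hpf, with counts as higher / lower of tested at the right edge. Dotted lines mark the 9.09% and 4.46% of all genes, the longest bars to the right are ribosomal proteins (77 of 80), sarcomere genes (42 of 57) and muscle excitation and energy (17 of 24), and the longest to the left is ribosome biogenesis (30 of 52).

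Red blood cell products appeared in quantity. All 5 globin genes tested rose, with a median log2 change of 4.79. hbbe3, an embryonic beta globin, had 67.5 and 50.0 CPM at 18 hpf, against 0 and 0.346 CPM at 14 hpf, a count ratio of 311 (95% counting interval 85.9 to 2576). hbae3, an embryonic alpha globin, had 52.3 and 48.7 CPM at 18 hpf, against 1.29 and 2.25 CPM at 14 hpf (log2 fold change 4.79, SE 0.48, adjusted p = 7.6e-06). The gene hbae1.3 had 34.2 and 31.5 CPM at 18 hpf, against 0.862 and 1.39 CPM at 14 hpf (log2 fold change 4.82, SE 0.54, adjusted p = 1.8e-05). The globin genes are near-identical in places, so how reads divide among them is uncertain, and the hbbe3 call was lost by DESeq2 (adjusted p = 0.24). Outside the globins 12 of 31 blood genes rose and 2 fell (in the whole blood list 0 without 18 hpf replicate 2 or 14 hpf replicate 1 and 1 without 18 hpf replicate 1 or 14 hpf replicate 2). SLC4A1 (ENSDARG00000012881), the anion exchanger of the red cell membrane, had 12.9 and 12.6 CPM at 18 hpf, against 1.08 and 0.693 CPM at 14 hpf (log2 fold change 3.85, SE 0.45, adjusted p = 2.6e-05). MYB, a factor of blood progenitors, had 29.7 and 25.0 CPM at 18 hpf, against 12.1 and 7.97 CPM at 14 hpf (log2 fold change 1.46, SE 0.33, adjusted p = 0.007, lost without 18 hpf replicate 1 or 14 hpf replicate 2 (adjusted p = 0.07 to 0.099)). The 36 blood genes gave 17 rises (10 without 14 hpf replicate 1) and a median of 0.84, or 0.77 with genes at 0 counts set to their bound. CEBPA, a myeloid factor, had 31.3 and 19.3 CPM at 18 hpf, against 55.8 and 46.2 CPM at 14 hpf and did not pass (adjusted p = 0.12), and of the 10 myeloid genes 1 rose (0 without 18 hpf replicate 1 or 14 hpf replicate 2), 1 fell and the median was -0.12. LCP1, the actin bundler of leukocytes, had 10.5 and 6.86 CPM at 18 hpf, against 75.0 and 45.7 CPM at 14 hpf (log2 fold change -2.77, SE 0.37, adjusted p = 0.00068).

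Vessel genes rose beside the blood genes. Of 34 endothelial and haemangioblast genes 10 rose (6 without 18 hpf replicate 1, 14 hpf replicate 1 or 14 hpf replicate 2) and 2 fell, with a median of 0.84. stab2, a scavenger receptor of veins, had 62.7 and 36.0 CPM at 18 hpf, against 7.54 and 6.06 CPM at 14 hpf (log2 fold change 2.87, SE 0.36, adjusted p = 5.0e-05). cdh5, the cadherin of endothelial junctions, had 28.6 and 24.5 CPM at 18 hpf, against 2.58 and 3.64 CPM at 14 hpf (log2 fold change 3.07, SE 0.42, adjusted p = 0.00018). TIE1, an endothelial receptor kinase, had 17.3 and 14.6 CPM at 18 hpf, against 0.646 and 2.60 CPM at 14 hpf (log2 fold change 3.23, SE 0.53, adjusted p = 0.00071). ephb4a, a marker of veins, had 48.9 and 60.04 CPM at 18 hpf, against 72.2 and 83.8 CPM at 14 hpf and did not pass (adjusted p = 0.056).

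In the heart the rise lay in contractile genes. Of 12 contractile heart genes 9 rose and none fell, with a median of 3.32, whereas of 17 heart factors 3 rose and 2 fell (1 in the whole heart list without 18 hpf replicate 1, 18 hpf replicate 2 or 14 hpf replicate 1), with a median of -0.33. MYL7, the light chain of heart muscle, had 11.8 and 12.8 CPM at 18 hpf, against 0 and 0.52 CPM at 14 hpf, a count ratio of 42.4 (95% counting interval 14.2 to 208). MYH6 (ENSDARG00000079564), a heart myosin heavy chain, had 18.9 and 19.3 CPM at 18 hpf, against 0.431 and 0.693 CPM at 14 hpf (log2 fold change 5.01, SE 0.61, adjusted p = 7.7e-05). MEF2C (ENSDARG00000029764), which drives contractile genes in heart and skeletal muscle, had 125 and 115 CPM at 18 hpf, against 14.7 and 14.0 CPM at 14 hpf (log2 fold change 3.06, SE 0.44, adjusted p = 0.00092). Several of these genes are also expressed in skeletal muscle, and the list's part from each tissue was not tested. actc1a, an alpha actin, had 509.9 and 317 CPM at 18 hpf, against 225 and 143 CPM at 14 hpf (adjusted p = 0.079), with its replicates far apart.

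Kidney genes were mixed, with a median of -0.19. Of 22 tested 4 rose and 2 fell (0 without 18 hpf replicate 1, 18 hpf replicate 2 or 14 hpf replicate 1 and 1 without control 18 hpf replicate 1, control 18 hpf replicate 2, control 14 hpf replicate 1 or control 14 hpf replicate 2). SLC12A3, the thiazide-sensitive sodium chloride carrier of the distal nephron, had 16.7 and 16.7 CPM at 18 hpf and no count at 14 hpf, at least 58.0-fold higher. atp1a1a.4, a sodium pump subunit, had 34.8 and 26.9 CPM at 18 hpf, against 0.215 and 0.866 CPM at 14 hpf (log2 fold change 5.71, SE 0.57, adjusted p = 7.6e-06). CDH17, a cadherin of the pronephric tubule, had 30.1 and 15.9 CPM at 18 hpf, against 1.94 and 4.68 CPM at 14 hpf (log2 fold change 2.76, SE 0.51, adjusted p = 0.0019).

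Many neuronal genes rose. Of 68 proneural and early neuron genes 35 rose (13 without 14 hpf replicate 1, 15 without 18 hpf replicate 1, 18 without 18 hpf replicate 2 and 22 without 14 hpf replicate 2) and 1 fell, and the median log2 change was 1.47. Among 48 genes of postmitotic neurons 28 rose, 1 fell and the median was 1.82. The 20 proneural and Delta genes gave 7 rises and a median of 0.94. STMN2 (ENSDARG00000070537), a tubulin regulator of growing axons, had 38.1 and 28.9 CPM at 18 hpf, against 1.51 and 2.94 CPM at 14 hpf (log2 fold change 3.87, SE 0.38, adjusted p = 5.4e-06). gap43, a growth cone protein, had 28.1 and 30.9 CPM at 18 hpf, against 3.88 and 3.12 CPM at 14 hpf (log2 fold change 3.08, SE 0.32, adjusted p = 7.4e-06). GNG3, a G protein subunit of neurons, had 17.3 and 15.9 CPM at 18 hpf, against 0 and 0.173 CPM at 14 hpf, a count ratio of 174 (95% counting interval 30.9 to 6904). tubb2b, a neural beta tubulin with high CPM at both times, had 844 and 907 CPM at 18 hpf, against 756 and 925 CPM at 14 hpf and overlapping libraries (adjusted p = 0.82).

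Genes that steer axons followed. Of 31 axon guidance genes 9 rose (4 without 18 hpf replicate 1, 18 hpf replicate 2 or 14 hpf replicate 1 and 5 without 14 hpf replicate 2) and none fell, with a median of 0.53. SLIT3, a repellent ligand of Robo receptors, had 58.5 and 47.6 CPM at 18 hpf, against 16.4 and 18.5 CPM at 14 hpf (log2 fold change 1.60, SE 0.29, adjusted p = 0.0016), SLIT1 (ENSDARG00000099446) had 14.5 and 11.7 CPM at 18 hpf, against 3.66 and 1.73 CPM at 14 hpf (log2 fold change 2.303, SE 0.41, adjusted p = 0.002). SEMA3D, a semaphorin ligand, had 25.1 and 19.1 CPM at 18 hpf, against 5.82 and 5.89 CPM at 14 hpf (log2 fold change 1.92, SE 0.37, adjusted p = 0.0023). PLXNA4, a semaphorin receptor, had 8.14 and 11.3 CPM at 18 hpf, against 1.29 and 0.693 CPM at 14 hpf (log2 fold change 3.29, SE 0.68, adjusted p = 0.0044, lost without 14 hpf replicate 2 (adjusted p = 0.068)). The Eph receptors and ephrins gave 6 rises (1 without 14 hpf replicate 1, 2 without 18 hpf replicate 1 or 18 hpf replicate 2 and 3 without 14 hpf replicate 2) and 3 falls (1 without 18 hpf replicate 1 or 14 hpf replicate 2) among 23. EPHB2 (ENSDARG00000021539), an Eph receptor, had 23.4 and 23.9 CPM at 18 hpf, against 2.80 and 4.503 CPM at 14 hpf (log2 fold change 2.67, SE 0.38, adjusted p = 0.00019).

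Among neural progenitor genes 7 of 27 rose (4 without 14 hpf replicate 1) and 3 fell. nes, the intermediate filament of progenitors, had 156 and 155 CPM at 18 hpf, against 45.9 and 53.4 CPM at 14 hpf (log2 fold change 1.65, SE 0.19, adjusted p = 2.1e-05). FABP7 (ENSDARG00000007697), the lipid-binding protein of radial glia, had 15.8 and 13.5 CPM at 18 hpf, against 0.431 and 1.21 CPM at 14 hpf (log2 fold change 4.07, SE 0.62, adjusted p = 0.00036). ZIC2 (ENSDARG00000037178), a zinc finger factor of neural plate cells, had 137 and 134 CPM at 18 hpf, against 210.4 and 216 CPM at 14 hpf (log2 fold change -0.66, SE 0.13, adjusted p = 0.0031). sox19a, a pan-neural SoxB1 gene, had 482 and 546 CPM at 18 hpf, against 542 and 554 CPM at 14 hpf (adjusted p = 0.65).

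Regional brain genes moved in both directions. In the forebrain and eye list 7 of 40 rose (3 without 18 hpf replicate 1, 14 hpf replicate 1 or 14 hpf replicate 2 and 4 without 18 hpf replicate 2) and 3 fell. OTX2, an early head selector, had 49.1 and 44.3 CPM at 18 hpf, against 102 and 88.3 CPM at 14 hpf (log2 fold change -1.03, SE 0.13, adjusted p = 5.0e-05). OTX1 had 68.5 and 71.0 CPM at 18 hpf, against 112 and 115 CPM at 14 hpf (log2 fold change -0.70, SE 0.14, adjusted p = 0.0036). TBR1, a factor of young forebrain neurons, had 6.40 and 6.49 CPM at 18 hpf and no count at 14 hpf, at least 22.4-fold higher, and EOMES (ENSDARG00000006640) had 6.11 and 10.9 CPM at 18 hpf, against 0 and 0.866 CPM at 14 hpf (log2 fold change 4.11, SE 0.71, adjusted p = 0.001). In the midbrain and hindbrain list 7 of 33 rose (2 without 14 hpf replicate 1, 3 without 18 hpf replicate 2 or 14 hpf replicate 2 and 4 without 18 hpf replicate 1) and 8 fell (3 without 18 hpf replicate 1 or 14 hpf replicate 2 and 4 without 18 hpf replicate 2 or 14 hpf replicate 1). The Iroquois genes irx7, with 21.5 and 21.3 CPM at 18 hpf, against 68.9 and 57.9 CPM at 14 hpf (log2 fold change -1.56, SE 0.16, adjusted p = 7.5e-06), and IRX1 (ENSDARG00000056594), with 63.0 and 64.1 CPM at 18 hpf, against 136 and 132 CPM at 14 hpf (log2 fold change -1.08, SE 0.11, adjusted p = 7.1e-06), pattern the early midbrain and hindbrain. en1b, an Engrailed gene of the boundary between the midbrain and hindbrain, had 13.7 and 8.71 CPM at 18 hpf, against 0.215 and 1.39 CPM at 14 hpf (log2 fold change 3.70, SE 0.66, adjusted p = 0.0015). TCF7L2, a Wnt effector of the diencephalon, had 62.2 and 54.1 CPM at 18 hpf, against 24.8 and 23.2 CPM at 14 hpf (log2 fold change 1.28, SE 0.21, adjusted p = 0.00082).

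Among the Hox genes those of the posterior groups had the largest median change. Of 22 genes of groups 9 to 13, 12 rose (7 without 14 hpf replicate 1) and none fell, with a median log2 change of 1.54. Groups 5 to 8 gave 3 of 12 (1 without 18 hpf replicate 1, 18 hpf replicate 2, 14 hpf replicate 1 or 14 hpf replicate 2), median 0.61, and groups 1 to 4 gave 3 of 13 (0 without 18 hpf replicate 2 or 14 hpf replicate 1 and 1 without 14 hpf replicate 2), median 0.66. HOXC13 (ENSDARG00000113877) had 9.30 and 9.45 CPM at 18 hpf and no count at 14 hpf, at least 32.5-fold higher. A HOXC12 gene (ENSDARG00000103133) likewise had 8.43 and 10.01 CPM at 18 hpf and no count at 14 hpf, at least 31.7-fold higher. The other HOXC12 gene (ENSDARG00000070352) had 14.0 and 24.5 CPM at 18 hpf, against 1.08 and 1.21 CPM at 14 hpf (log2 fold change 4.03, SE 0.51, adjusted p = 0.00011). HOXC11 had 20.4 and 22.6 CPM at 18 hpf, against 2.37 and 4.68 CPM at 14 hpf (log2 fold change 2.58, SE 0.39, adjusted p = 0.00048). The gene hoxd13a, a gene of the posterior body and fins, had 9.16 and 12.4 CPM at 18 hpf, against 0.431 and 0.52 CPM at 14 hpf (log2 fold change 4.43, SE 0.69, adjusted p = 0.00085). HOXB9, at the anterior edge of this class, had 128 and 124 CPM at 18 hpf, against 116 and 135 CPM at 14 hpf with overlapping libraries (adjusted p = 0.97). HOXB8 had 53.9 and 48.0 CPM at 18 hpf, against 17.02 and 13.3 CPM at 14 hpf (log2 fold change 1.75, SE 0.25, adjusted p = 0.00017), whereas HOXB7 had 59.0 and 60.4 CPM at 18 hpf, against 79.3 and 83.7 CPM at 14 hpf (adjusted p = 0.24) and HOXB3 had 174 and 197 CPM at 18 hpf, against 119 and 144 CPM at 14 hpf (adjusted p = 0.36).

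Some pigment cell genes rose within the neural crest, while most were not called. Of 18 pigment cell genes 5 rose and none fell, with a median of 1.79, and of 26 crest specifiers 3 rose and 2 fell, with a median of 0.03. The crest and pigment list as a whole gave 8 rises (3 without 14 hpf replicate 1 and 5 without 18 hpf replicate 1, 18 hpf replicate 2 or 14 hpf replicate 2) and 2 falls (0 without 18 hpf replicate 1 and 1 without 18 hpf replicate 2 or 14 hpf replicate 1). trpm1b, a cation channel of pigment cells, had 30.4 and 28.9 CPM at 18 hpf and no count at 14 hpf, at least 103-fold higher. TFEC, a factor of the same family as Mitf, had 9.89 and 14.6 CPM at 18 hpf, against 0.646 and 0.866 CPM at 14 hpf (log2 fold change 3.96, SE 0.56, adjusted p = 0.00017). The gene twist1a, a mesenchyme factor, had 43.5 and 47.1 CPM at 18 hpf, against 16.6 and 18.5 CPM at 14 hpf (log2 fold change 1.36, SE 0.22, adjusted p = 0.00052).

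Some keratins rose and others fell. Of 23 keratins 8 rose and 3 fell, and of 26 other epidermal genes 1 rose and 4 fell, so the list of 49 gave 9 rises (2 without 14 hpf replicate 1 and 4 without 18 hpf replicate 2) and 7 falls (4 without 18 hpf replicate 2 or 14 hpf replicate 1). krt18a.1, a keratin of simple epithelia, had 1201 and 1197 CPM at 18 hpf, against 2738 and 2470 CPM at 14 hpf (log2 fold change -1.12, SE 0.11, adjusted p = 3.1e-06), and its partner krt8 had 1016 and 1183 CPM at 18 hpf, against 2050 and 2096 CPM at 14 hpf (log2 fold change -0.91, SE 0.13, adjusted p = 0.00013). PKP1, a desmosome protein, had 23.9 and 26.7 CPM at 18 hpf, against 65.5 and 61.7 CPM at 14 hpf (log2 fold change -1.33, SE 0.16, adjusted p = 3.0e-05). krt1-19d, a type I keratin, had 11.1 and 14.6 CPM at 18 hpf, against 0 and 0.173 CPM at 14 hpf, a count ratio of 132 (95% counting interval 23.3 to 5228). cyt1l, another type I keratin, had 1969 and 2318 CPM at 18 hpf, against 772 and 1094 CPM at 14 hpf (log2 fold change 1.2, SE 0.25, adjusted p = 0.0092). The gene krt4 had 10555 and 11167 CPM at 18 hpf, against 6409 and 7300 CPM at 14 hpf (log2 fold change 0.66, SE 0.17, adjusted p = 0.02). The cyt1l call was lost without 18 hpf replicate 2 or 14 hpf replicate 1 and with only libraries of 14 and 18 hpf (adjusted p = 0.06 to 0.092), and the krt4 call without 18 hpf replicate 1, 18 hpf replicate 2, 14 hpf replicate 1 or 14 hpf replicate 2 (adjusted p = 0.055 to 0.16). krt5 had 4284 and 4658 CPM at 18 hpf, against 3857 and 4491 CPM at 14 hpf (adjusted p = 0.78). GATA3, counted with the ear and placode genes, of which 5 of 36 rose (1 without 18 hpf replicate 1 or 14 hpf replicate 1 and 3 without 18 hpf replicate 2 or 14 hpf replicate 2) and 4 fell, had 36.1 and 30.9 CPM at 18 hpf, against 90.7 and 56.1 CPM at 14 hpf (log2 fold change -1.12, SE 0.21, adjusted p = 0.002). In the fin list 6 of 18 rose (2 without 18 hpf replicate 1 or 14 hpf replicate 1 and 3 without 18 hpf replicate 2 or 14 hpf replicate 2) and none fell, and FREM2 (ENSDARG00000076856), a basement membrane protein of fin and skin, had 28.1 and 28.9 CPM at 18 hpf, against 6.68 and 7.97 CPM at 14 hpf (log2 fold change 1.95, SE 0.31, adjusted p = 0.00052).

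**Figure D3:**
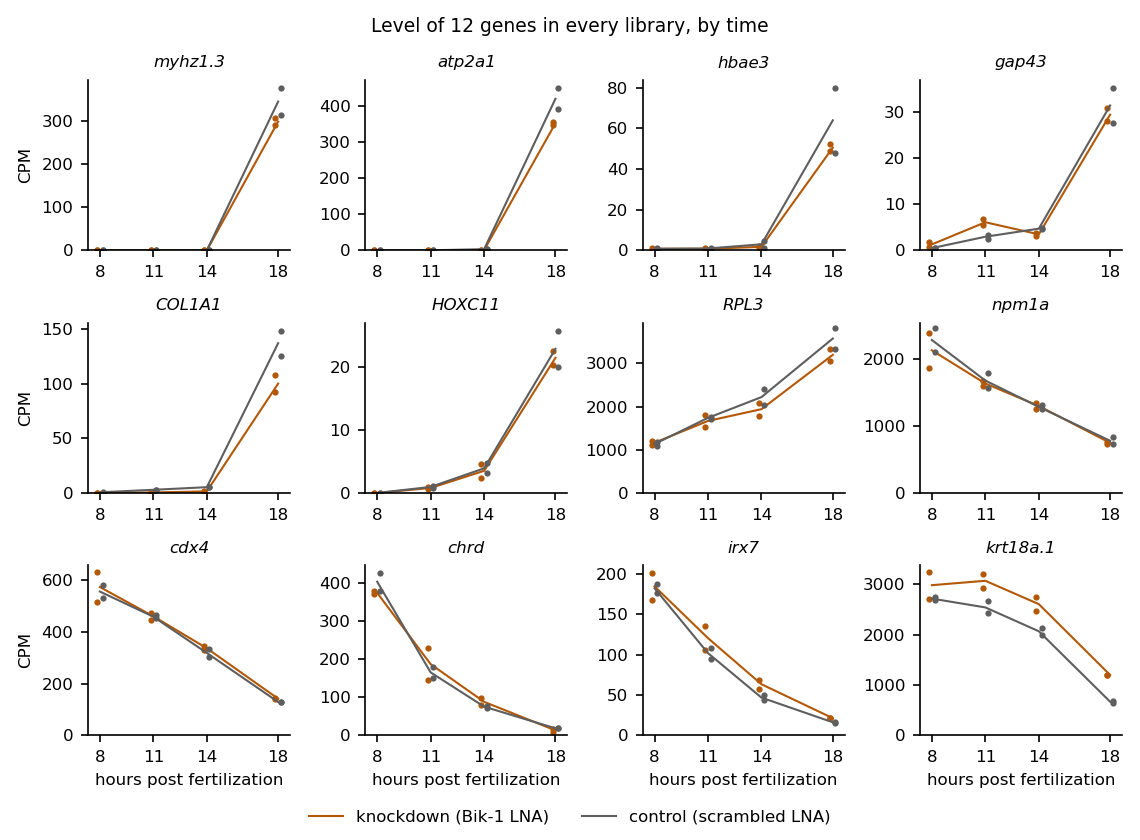
Each panel gives the CPM of 1 gene at 8, 11, 14 and 18 hpf, with points for single libraries and lines through group means, in knockdown (orange) and control (grey) embryos. myhz1.3, atp2a1, hbae3, COL1A1 and HOXC11 stand near 0 or low until 14 hpf and are high at 18 hpf, the RPL3 group means climb at every step, and npm1a, cdx4, chrd and irx7 decline from 8 hpf on.

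Genes of gastrula signalling fell more often than they rose. Of 24 Nodal and mesendoderm genes 9 fell and 1 rose (2 without 18 hpf replicate 1 or 18 hpf replicate 2), with a median of -0.60. chrd, or Chordin, the dorsal antagonist of BMP, had 9.74 and 17.1 CPM at 18 hpf, against 97.6 and 79.3 CPM at 14 hpf (log2 fold change -2.74, SE 0.25, adjusted p = 7.5e-06). foxh1, the DNA-binding partner of Smads in Nodal signalling, had 2.04 and 2.78 CPM at 18 hpf, against 15.7 and 12.3 CPM at 14 hpf (log2 fold change -2.54, SE 0.36, adjusted p = 0.00019). Regulators of the ventral side fell as well. vox, a ventral homeobox repressor, had 17.9 and 14.4 CPM at 18 hpf, against 58.4 and 43.5 CPM at 14 hpf (log2 fold change -1.64, SE 0.19, adjusted p = 2.2e-05), and its relative vent had 8.14 and 4.82 CPM at 18 hpf, against 42.6 and 27.7 CPM at 14 hpf (log2 fold change -2.41, SE 0.37, adjusted p = 0.00082). szl, a secreted BMP target known as Sizzled, had 1.02 and 0.371 CPM at 18 hpf, against 15.9 and 25.3 CPM at 14 hpf (log2 fold change -4.79, SE 1.23, adjusted p = 0.032), lost without 18 hpf replicate 1, 18 hpf replicate 2, 14 hpf replicate 1 or 14 hpf replicate 2 (adjusted p = 0.085 to 0.16). Of 36 BMP pathway genes 7 rose (3 without 18 hpf replicate 1, 18 hpf replicate 2 or 14 hpf replicate 1) and 7 fell (4 without 18 hpf replicate 1, 18 hpf replicate 2 or 14 hpf replicate 1). BMP5, a ligand, had 18.3 and 20.9 CPM at 18 hpf, against 1.72 and 4.503 CPM at 14 hpf (log2 fold change 2.61, SE 0.41, adjusted p = 0.00068). ID1, a direct BMP target, had 631 and 785 CPM at 18 hpf, against 617 and 673 CPM at 14 hpf (adjusted p = 0.52). The largest fall among the named genes was that of six7, a homeobox gene, at 0 and 0.185 CPM at 18 hpf, against 21.3 and 11.1 CPM at 14 hpf, a count ratio of 0.00521 (95% counting interval 0.000131 to 0.0294).

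FGF pathway genes fell more often than they rose. Of 30 tested 12 fell (6 without 18 hpf replicate 1 and 7 without 14 hpf replicate 1 or 14 hpf replicate 2) and 3 rose (0 without 18 hpf replicate 1, 18 hpf replicate 2, 14 hpf replicate 1 or 14 hpf replicate 2 and 1 without control 18 hpf replicate 1, control 18 hpf replicate 2, control 14 hpf replicate 1 or control 14 hpf replicate 2), with a median of -0.51. FGFR2, FGFR3 and a second FGF8 gene (ENSDARG00000039615) rose. Each of these calls was lost when any 1 knockdown library of 14 or 18 hpf was left out. Feedback genes, which the pathway itself induces, were among those that fell. etv5b, an ETS factor induced by FGF, had 104 and 112 CPM at 18 hpf, against 190.2 and 174 CPM at 14 hpf (log2 fold change -0.76, SE 0.11, adjusted p = 0.00017). The gene etv5a had 50.5 and 45.03 CPM at 18 hpf, against 87.0 and 78.0 CPM at 14 hpf (log2 fold change -0.79, SE 0.14, adjusted p = 0.0011). SPRY4, an inhibitor of the pathway, had 78.7 and 73.9 CPM at 18 hpf, against 126 and 123 CPM at 14 hpf (log2 fold change -0.70, SE 0.12, adjusted p = 0.00071). DUSP6, the phosphatase of ERK, had 171 and 161 CPM at 18 hpf, against 242 and 236 CPM at 14 hpf (log2 fold change -0.52, SE 0.10, adjusted p = 0.0027). DUSP2 had 0.436 and 0.741 CPM at 18 hpf, against 6.89 and 7.28 CPM at 14 hpf (log2 fold change -3.58, SE 0.52, adjusted p = 0.00025). fgfr4, a receptor, had 231 and 234 CPM at 18 hpf, against 342 and 321 CPM at 14 hpf (log2 fold change -0.51, SE 0.14, adjusted p = 0.023, lost without 18 hpf replicate 1, 18 hpf replicate 2, 14 hpf replicate 1 or 14 hpf replicate 2 (adjusted p = 0.07 to 0.15)).

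In the Wnt pathway the share called was near that over all genes. Of 47 Wnt genes 4 rose (2 without 18 hpf replicate 1, 18 hpf replicate 2, 14 hpf replicate 1 or 14 hpf replicate 2) and 4 fell (2 without 18 hpf replicate 1). wnt11f2, a ligand of cell movement in gastrulation, had 12.7 and 10.6 CPM at 18 hpf, against 35.8 and 22.2 CPM at 14 hpf (log2 fold change -1.303, SE 0.24, adjusted p = 0.0015). WNT7A (ENSDARG00000044827) had 29.5 and 20.8 CPM at 18 hpf, against 0.431 and 3.46 CPM at 14 hpf (log2 fold change 3.61, SE 0.55, adjusted p = 0.00041). FZD8 (ENSDARG00000038569), a Wnt receptor, had 1.89 and 2.04 CPM at 18 hpf, against 17.9 and 7.97 CPM at 14 hpf (log2 fold change -2.69, SE 0.41, adjusted p = 0.00054). CTNNB1, beta-catenin, had 1291 and 1397 CPM at 18 hpf, against 1549 and 1417 CPM at 14 hpf (adjusted p = 0.41). Of 27 retinoic acid genes 4 rose (1 without 18 hpf replicate 2 or 14 hpf replicate 1 and 2 without 18 hpf replicate 1) and 1 fell (2 without 14 hpf replicate 2). Their share called was 18.5%, against 13.6% of all genes. DHRS3 (ENSDARG00000044803), which turns retinal back to retinol, had 19.1 and 17.2 CPM at 18 hpf, against 64.0 and 39.5 CPM at 14 hpf (log2 fold change -1.50, SE 0.25, adjusted p = 0.0011), and the nuclear receptor NR2F1 (ENSDARG00000017168) had 69.5 and 62.8 CPM at 18 hpf, against 1.29 and 3.29 CPM at 14 hpf (log2 fold change 4.79, SE 0.49, adjusted p = 2.1e-05). In the Notch pathway 1 of 21 rose (0 without 18 hpf replicate 1 or 14 hpf replicate 2) and none fell, a share called of 4.76%.

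Genes for ribosomes and genes for building them moved in opposite directions. Of 80 cytosolic ribosomal protein genes 77 rose and none fell, with a median log2 change of 0.65, and the count was 30 without 14 hpf replicate 1 but 56 to 70 without any other single knockdown library. RPL3 had 3061 and 3333 CPM at 18 hpf, against 1791 and 2089 CPM at 14 hpf (log2 fold change 0.72, SE 0.12, adjusted p = 0.00068). RPS23 had 1098 and 1158 CPM at 18 hpf, against 644 and 743 CPM at 14 hpf (log2 fold change 0.70, SE 0.11, adjusted p = 0.00041). RPL28 had 1082 and 1082 CPM at 18 hpf, against 652 and 686 CPM at 14 hpf (log2 fold change 0.69, SE 0.10, adjusted p = 0.00026). The ribosomal proteins took 12.4% and 12.9% of CPM at 18 hpf, against 7.63% and 8.62% at 14 hpf. Many ribosomal protein genes have near-identical copies elsewhere in the genome, and how reads shared with them were counted is not given in the sources used here. Of 52 genes of ribosome biogenesis and the nucleolus 30 fell (14 without 18 hpf replicate 1, 15 without 14 hpf replicate 1 or 14 hpf replicate 2 and 17 without 18 hpf replicate 2) and none rose, with a median of -0.47. npm1a, nucleophosmin, had 761 and 739 CPM at 18 hpf, against 1347 and 1259 CPM at 14 hpf (log2 fold change -0.80, SE 0.12, adjusted p = 0.00038). GNL3, a nucleolar GTPase, had 125 and 131 CPM at 18 hpf, against 206 and 217 CPM at 14 hpf (log2 fold change -0.72, SE 0.11, adjusted p = 0.00049). GAR1, a protein of box H/ACA particles, had 293 and 278 CPM at 18 hpf, against 446 and 422 CPM at 14 hpf (log2 fold change -0.60, SE 0.10, adjusted p = 0.0011). Their share of CPM was 0.819% and 0.834% at 18 hpf, against 1.18% and 1.21% at 14 hpf. With RLE size factors in place of TMM the median of all genes shifted by 0.044, and the genes lower numbered 608 in place of 754. DESeq2 called 78 ribosomal protein genes higher and 21 biogenesis genes lower. Both scalings take most genes as unchanged, so an effect of library composition was not tested.

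Translation factors were mixed. Of 42, 10 rose (5 without 18 hpf replicate 2 or 14 hpf replicate 1 and 6 without 18 hpf replicate 1) and 3 fell (0 without 18 hpf replicate 1, 18 hpf replicate 2, 14 hpf replicate 1 or 14 hpf replicate 2), with a median of 0.05. PABPC4, a cytoplasmic poly(A)-binding protein, had 96.4 and 83.4 CPM at 18 hpf, against 4.09 and 4.16 CPM at 14 hpf (log2 fold change 4.44, SE 0.28, adjusted p = 7.5e-08). EEF1B2 had 556 and 586 CPM at 18 hpf, against 249 and 274 CPM at 14 hpf (log2 fold change 1.13, SE 0.11, adjusted p = 3.3e-06). EEF1G had 1106 and 1184 CPM at 18 hpf, against 611 and 711 CPM at 14 hpf (log2 fold change 0.79, SE 0.10, adjusted p = 7.7e-05). Both are subunits of the exchange factor for eEF1A. eef1a1l1, which encodes eEF1A itself, had 13083 and 14517 CPM at 18 hpf, against 12020 and 13285 CPM at 14 hpf with overlapping libraries (adjusted p = 0.49).

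Enzymes of energy metabolism rose in part. Of 34 glycolysis and citrate cycle genes 14 rose (9 without 18 hpf replicate 1 or 14 hpf replicate 1) and none fell, with a median of 0.59. ENO1 (ENSDARG00000022456), an enolase, had 25.7 and 27.24 CPM at 18 hpf, against 3.66 and 3.81 CPM at 14 hpf (log2 fold change 2.82, SE 0.34, adjusted p = 3.9e-05). The aldolase gene ALDOA (ENSDARG00000034470) had 90 and 85.2 CPM at 18 hpf, against 3.45 and 6.41 CPM at 14 hpf (log2 fold change 4.12, SE 0.34, adjusted p = 3.2e-06), while the other ALDOA gene (ENSDARG00000011665) had 338 and 381 CPM at 18 hpf, against 349.6 and 402 CPM at 14 hpf (adjusted p = 0.76). IDH2, a mitochondrial isocitrate dehydrogenase, had 403 and 403 CPM at 18 hpf, against 202 and 208 CPM at 14 hpf (log2 fold change 0.97, SE 0.18, adjusted p = 0.0024). Nuclear genes of oxidative phosphorylation had a small positive median log2 change of 0.26. Their change was above 0 in 74 of 79 in the knockdown and in 70 in the control, though few were called. Of 79 nuclear genes of oxidative phosphorylation 9 rose (11.4%, near the 9.09% of all genes, with 0 without 18 hpf replicate 1 or 14 hpf replicate 1, 1 without 14 hpf replicate 2 and 2 without 18 hpf replicate 2) and none fell.

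Splicing genes fell in part. Of 59 splicing and hnRNP genes 12 fell (3 without 18 hpf replicate 1 or 18 hpf replicate 2 and 4 without 14 hpf replicate 1 or 14 hpf replicate 2) and 2 rose (1 without 18 hpf replicate 1 or 14 hpf replicate 2), with a median of -0.22. hnrnpa1a had 753 and 728 CPM at 18 hpf, against 1179 and 1010 CPM at 14 hpf (log2 fold change -0.56, SE 0.10, adjusted p = 0.00096). The gene hnrnpa0b, of the same family of RNA-binding proteins, had 1669 and 1536 CPM at 18 hpf, against 1085 and 1026 CPM at 14 hpf (log2 fold change 0.60, SE 0.11, adjusted p = 0.0022). Of 82 cell cycle genes 5 fell (0 without 18 hpf replicate 1, 1 without 14 hpf replicate 1 or 14 hpf replicate 2 and 2 without 18 hpf replicate 2) and none rose (1 without 14 hpf replicate 2), with a median of -0.06. The share that fell, 6.1%, was near the 4.46% of all genes. MCM5, a subunit of the replicative helicase, had 254 and 277 CPM at 18 hpf, against 349 and 385 CPM at 14 hpf (log2 fold change -0.47, SE 0.11, adjusted p = 0.011, lost without 18 hpf replicate 1 or 14 hpf replicate 2 (adjusted p = 0.11 to 0.13)). PCNA, the replication clamp, had 783 and 786 CPM at 18 hpf, against 759 and 858 CPM at 14 hpf (adjusted p = 0.85). The gene mki67, a marker of cycling cells, had 742 and 764 CPM at 18 hpf, against 589.8 and 733 CPM at 14 hpf (adjusted p = 0.43).

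Among the genes with the largest loss of CPM were chromatin and RNA-binding proteins of early embryos. hmga1a, an architectural chromatin protein, had 6923 and 7116 CPM at 18 hpf, against 11475 and 10063 CPM at 14 hpf (log2 fold change -0.62, SE 0.09, adjusted p = 0.00036). khdrbs1a, an RNA-binding protein, had 1835 and 1774 CPM at 18 hpf, against 3231 and 2720 CPM at 14 hpf (log2 fold change -0.72, SE 0.11, adjusted p = 0.00048). The gene cirbpb, a cold-inducible RNA-binding protein, had 2871 and 2684 CPM at 18 hpf, against 4150 and 4208 CPM at 14 hpf (log2 fold change -0.59, SE 0.12, adjusted p = 0.0033). HSPB1, a small heat shock protein, had 99.2 and 112 CPM at 18 hpf, against 873 and 792 CPM at 14 hpf (log2 fold change -2.98, SE 0.13, adjusted p = 3.5e-10), while its relative HSPB8 had 73.4 and 67.3 CPM at 18 hpf, against 26.5 and 27.9 CPM at 14 hpf (log2 fold change 1.37, SE 0.27, adjusted p = 0.0028). Of 31 chaperone genes 6 rose (2 without 18 hpf replicate 1 or 14 hpf replicate 1 and 3 without 18 hpf replicate 2) and 2 fell (1 without 18 hpf replicate 1, 18 hpf replicate 2 or 14 hpf replicate 2). In sum of CPM, the genes that rose gained 109092 and the genes that fell lost 42369 between the group means.

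Repeat families changed in smaller numbers than genes. Of 862 families tested 25 rose (2.90%) and 16 fell (1.86%). A family's count sums over its copies in the genome. Families took 6.252% and 5.567% of counts at 18 hpf, against 8.152% and 6.668% at 14 hpf. The median log2 change over families was nevertheless 0.066, with 364 of the 862 below 0. Several families of endogenous retroviruses rose. ERV1-N5-I_DR had 201 and 141 CPM at 18 hpf, against 19.0 and 13.9 CPM at 14 hpf (log2 fold change 3.39, SE 0.29, adjusted p = 3.4e-06). ERV3_DR_LTR had 100.2 and 88.0 CPM at 18 hpf, against 14.0 and 11.4 CPM at 14 hpf (log2 fold change 2.89, SE 0.22, adjusted p = 3.7e-07), and ERV1-N1-I_DR had 372 and 314 CPM at 18 hpf, against 70.0 and 61.7 CPM at 14 hpf (log2 fold change 2.38, SE 0.14, adjusted p = 2.3e-08). ERV1-2-I_DR had 76.6 and 73.9 CPM at 18 hpf, against 9.69 and 18.4 CPM at 14 hpf (log2 fold change 2.41, SE 0.42, adjusted p = 0.0029). ERV1-N4-I_DR moved the other way, with 109 and 103 CPM at 18 hpf, against 1032 and 812 CPM at 14 hpf (log2 fold change -3.12, SE 0.46, adjusted p = 0.0027), and all 4 libraries kept these orders without overlap.

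The BHIKHARI families that were called all fell. BHIKHARI_LTR, at the levels given above, changed by -0.56 on the log2 scale in the knockdown (SE 0.15, adjusted p = 0.019), lost without 18 hpf replicate 1, 18 hpf replicate 2, 14 hpf replicate 1 or 14 hpf replicate 2 (adjusted p = 0.087 to 0.11). In the control its log2 fold change was -1.08, so that the knockdown change minus the control change was 0.52 (SE 0.20, unadjusted p = 0.021). This difference was not called, since genes with a lower unadjusted p did not pass either. BHIKHARI_I-int, the internal part with the coding sequence, had 12.2 and 18.9 CPM at 18 hpf, against 33.6 and 34.0 CPM at 14 hpf and did not pass (adjusted p = 0.12). BHIKHARI-3-I_DR had 5.67 and 2.78 CPM at 18 hpf, against 74.5 and 32.6 CPM at 14 hpf (log2 fold change -3.60, SE 0.48, adjusted p = 0.00087), with the 14 hpf replicates far apart. BHIKHARI-3-LTR_DR had 23.6 and 11.9 CPM at 18 hpf, against 166 and 61.0 CPM at 14 hpf (log2 fold change -2.65, SE 0.60, adjusted p = 0.022), lost without 18 hpf replicate 1, 18 hpf replicate 2 or 14 hpf replicate 1, with only libraries of 14 and 18 hpf and with only the 4 knockdown libraries (adjusted p = 0.059 to 0.21). BHIKHARI-5-I_DR had 26.9 and 23.0 CPM at 18 hpf, against 55.8 and 66.3 CPM at 14 hpf (log2 fold change -1.29, SE 0.32, adjusted p = 0.02), lost without 18 hpf replicate 1, 18 hpf replicate 2, 14 hpf replicate 1 or 14 hpf replicate 2 (adjusted p = 0.066 to 0.13). BHIKHARI-2-LTR_DR had 289 and 284 CPM at 18 hpf, against 229 and 254 CPM at 14 hpf (adjusted p = 0.49), and the 4 other families of the BHIKHARI name were not called either.

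**Figure D4:**
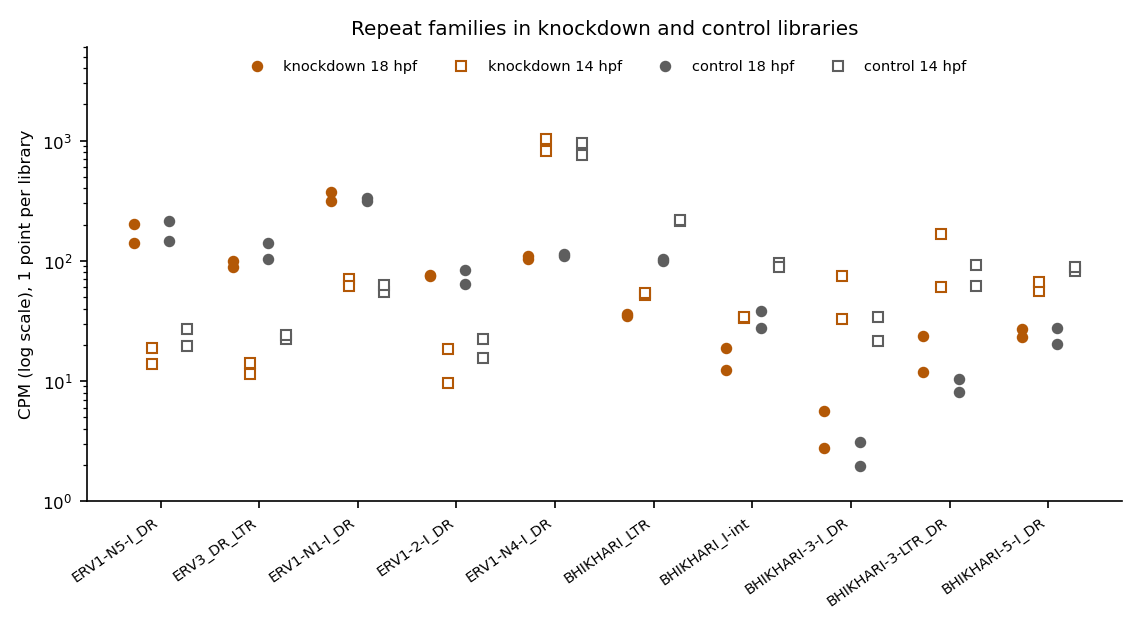
CPM on a log axis of 10 repeat families in each library, with knockdown in orange, control in grey, filled circles for 18 hpf and open squares for 14 hpf. The ERV1-N5-I_DR, ERV3_DR_LTR, ERV1-N1-I_DR and ERV1-2-I_DR libraries are higher at 18 hpf, ERV1-N4-I_DR and the BHIKHARI families lower, and BHIKHARI_LTR is lower in knockdown than in control libraries at each time.

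The same step was then read in the control embryos, which share no library with the knockdown comparison. There 1360 genes were higher (8.05%) and 664 lower (3.93%) at 18 hpf. Of the knockdown calls, 1063 genes were higher in both (69.2% of the knockdown and 78.2% of the control calls) and 410 lower in both (54.4% and 61.7%). No gene was called in opposite directions. Of the genes called in the knockdown, 1530 of the 1536 higher and 744 of the 754 lower had a control change of the same sign. Across 9761 genes with a group mean of at least 10 CPM in the knockdown, which are not independent replicates, the log2 changes had a Pearson r of 0.931, and over all 16894 genes tested r was 0.791.

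**Figure D5:**
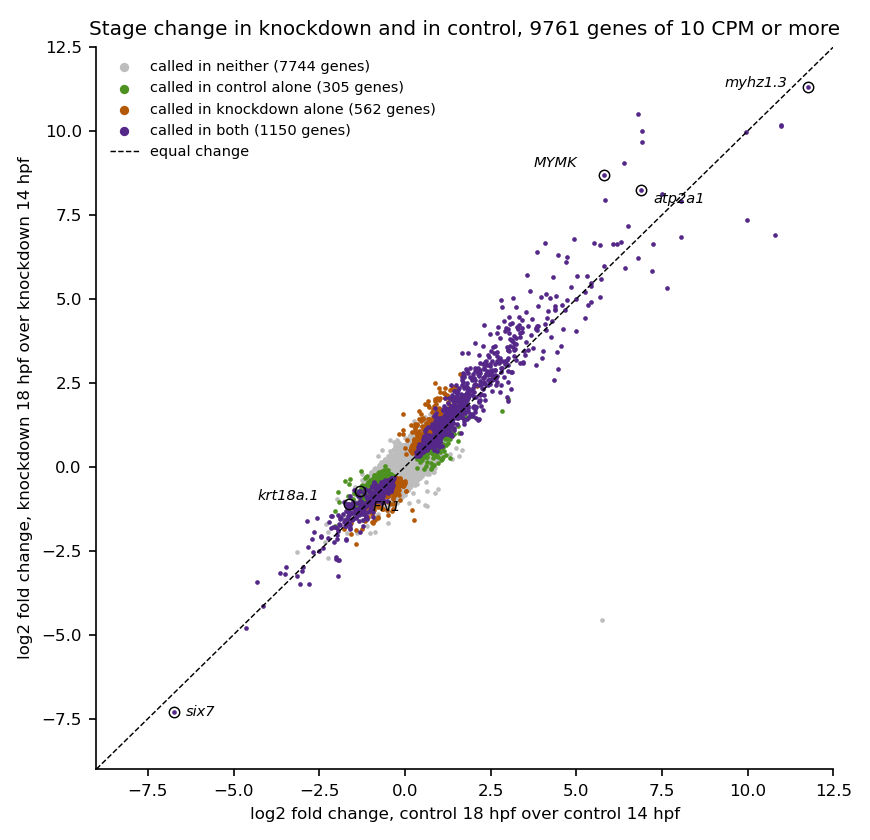
Each point is 1 of 9761 genes, placed by its log2 fold change from 14 to 18 hpf in control (horizontal) and knockdown (vertical), with the dashed line at equal change. Genes called in both (purple) run along the line from six7 (-7.29 in the knockdown) to myhz1.3 (11.32 in the knockdown), and krt18a.1 (-1.12 in the knockdown and -1.63 in the control) and FN1 are ringed.

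Whether a gene changed by a different amount in knockdown embryos was tested directly, as the knockdown change minus the control change. No gene passed with edgeR's fit of group means or with DESeq2 after the filter on low counts (14 passed with edgeR without it), and 308 genes (1.82%) had an unadjusted p under 0.05 with edgeR. A test at its nominal level gives a fraction of about 0.05 there without any true difference. The 308 genes are fewer than that and so are no sign of differences. The median SE of this difference was 0.47 on the log2 scale, against 0.34 for the knockdown change alone. The 5 genes with the lowest p are given as values. krt18a.1 had a log2 change of -1.12 in the knockdown and -1.63 in the control, a difference of 0.51 (SE 0.15, unadjusted p = 0.0031). FN1 (ENSDARG00000019815), a fibronectin, had 92.0 and 84.7 CPM at 18 hpf and 148 and 140.1 CPM at 14 hpf in the knockdown, against 86.6 and 78.7 CPM at 18 hpf and 209 and 198 CPM at 14 hpf in the control, a difference of 0.60 (SE 0.15, unadjusted p = 0.0012). si:dkey-3h3.3 had log2 changes of -2.81 in the knockdown and 0.03 in the control (unadjusted p = 0.00055). SRMS, a kinase gene, had 0.57 and -3.28 (unadjusted p = 0.0027). The gene ugt5f1, a glucuronosyltransferase gene, had 0.27 and -1.91 (unadjusted p = 0.0032), knockdown before control.

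By list, counts in the knockdown and the control stood side by side. Sarcomere genes gave 42 rises of 57 in the knockdown and 42 in the control, with medians of 2.44 and 2.19. Neuron genes gave 35 and 30 rises of 68 (1.47 and 1.28), ribosomal proteins 77 and 73 of 80 (0.65 and 0.59), and Hox groups 9 to 13 gave 12 and 11 of 22. Falls numbered 30 and 25 of 52 in ribosome biogenesis, 10 and 9 of 26 in the tailbud list, and 9 and 9 of 24 in the Nodal list. FGF genes gave 12 falls of 30 in the knockdown and 7 in the control, with medians of -0.51 and -0.24. Gene by gene, the knockdown change minus the control change had a median of -0.05 in these 30 and was above 0 in 13. In some other lists that median lay further from 0 than in those above. It was 0.37 in the yolk syncytial layer list (above 0 in 26 of 30 genes) and 0.40 in axon guidance (25 of 31). It was 0.29 in circadian clock genes (17 of 26) and -0.30 in p53 and apoptosis genes (7 of 23). No member of these lists was called for a different change. Whether these counts and medians differ between knockdown and control was not tested.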

How the data were processed

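The authors deposited 1 table of raw read counts for 33556 features, 32520 Ensembl genes and 1036 repeat families, in the 16 libraries. Reads were aligned with STAR to GRCz11, per the submitters' processing notes. The counting program, its strand setting and its handling of multi-mapped reads were not given in the sources used here, so overlapping genes, near-identical paralogs and repeat families are the least certain values.

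Samples were grouped by their labels. Features with low counts were removed by filterByExpr, which left 17756 (16894 genes and 862 families) with at least 99.76% of each library's counts. A gene absent at 14 hpf passed that filter only through a group in which it was high. edgeR 4.0.16 (R 4.3.3) with TMM scaling was fitted to all 16 libraries with a mean for each group, leaving 8 residual degrees of freedom, and its quasi-likelihood F-test, two-sided, was adjusted by Benjamini-Hochberg over genes and families. The contrasts were knockdown 18 against 14 hpf, the same in the control, and their difference. Each SE was worked back from the test, as the absolute log2 fold change divided by the square root of F. The alternatives were DESeq2 1.42.0, RLE size factors, no low-count filter, a 2-fold minimum, genes alone, fewer libraries, each library left out and replicate blocks. In simulated counts for the knockdown comparison over 17756 features, 67 were changed 1.5-fold, 67 were changed 2-fold and 66 were changed 4-fold. Of these 4.48%, 29.9% and 65.2% were called, and 1.49% of 67 calls were false. In the data 2290 genes were called. The Benjamini-Hochberg cutoff is stricter where fewer features change, so these shares do not give the recovery in the data. In all 8 groups the replicates differed beyond sampling noise (chi-square per degree of freedom 3.89 to 31.4). It was 3.89 to 5.03 in the groups of 14 and 18 hpf and 9.08 to 31.4 in those of 8 and 11 hpf. The fit took its spread from all 16 libraries, so the p-values also rest on these earlier stages. More genes were called with only libraries of 14 and 18 hpf, and the cause was not tested.

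For a gene at 0 in a group, 3 counts over the group gave the limit for a fold, and for 1 to 3 counts the ratio carries a 95% interval. Both cover counting error only. Lists held 1890 symbols, of which 1338 matched a gene of the table by symbol, 428 by the human-style symbol without the paralog letter and 34 by a RefSeq synonym, while 90 matched none. Genes whose symbol is shared are given with their Ensembl ID. Named were the 15 largest rises and falls with at least 10 CPM, up to 4 called members of lowest p and the 2 of highest CPM in each list, the 5 lowest p of the difference, the 10 largest gains and losses of CPM, the BHIKHARI families and the 5 largest family changes each way. From these the text gives a selection chosen with the values in view. The members and lists were chosen with earlier results of these data known. Some named genes are not reported here.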

Additional observations from a re-analysis of the deposited data

How the results depend on the processing

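In the knockdown, 1536 genes higher became 2617 with only libraries of 14 and 18 hpf, 2436 with only the 4 knockdown libraries and 586 to 1374 with 1 library left out. The 754 genes lower became 1162 without the low-count filter, 1667 with only libraries of 14 and 18 hpf, 1509 with only the 4 knockdown libraries, 305 at a minimum of 2-fold and 204 to 671 with 1 library left out. Families higher (25) became 51, 46 and 8 to 18 with only libraries of 14 and 18 hpf, only the 4 knockdown libraries and 1 library left out, and families lower (16) became 36, 29 and 6 to 15, and 33 without the filter. In the control, 1360 genes higher became 2406 with only libraries of 14 and 18 hpf and 458 to 1270 with 1 library left out. The 664 lower became 1043 without the filter, 1545 with only libraries of 14 and 18 hpf, 311 at a minimum of 2-fold and 181 to 592 with 1 library left out. Genes whose change differed (0) became 14 without the filter and stayed at 0 with 1 library left out. List members called (555) became 274 to 517 with 1 library left out. Leaving out control libraries for the knockdown counts, and knockdown libraries for the control counts, was added after seeing the data. DESeq2 called 1510 higher and 586 lower, sharing 1948 of its calls with edgeR.

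The labels tie replicate numbers to no shared clutch or day. Deviations from group means correlated between same-numbered libraries at 0.276 for knockdown 18 and 14 hpf and 0.131 for control 18 and 14 hpf, and at 0.274 for knockdown and control at 14 hpf and 0.0974 at 18 hpf. With a replicate block within each time the counts became 2663 higher and 2092 lower in the knockdown (56% higher, against 67.1% without it), 65 and 47 families, 2474 and 2002 in the control, 5 for the difference and 874 list members. A replicate block over all libraries gave 1719 genes higher, 1058 genes lower and 25 families lower in the knockdown.

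Of 344 named results none reversed. Those no longer called numbered 13 under DESeq2 and 57 to 83 without single knockdown libraries. The cause was not tested. With 2 libraries at each time and 4399855 to 6840271 counts in each knockdown library, 4.48% of simulated 1.5-fold changes were called. That simulation changed far fewer features than were called in the data.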

Other observations

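Genes of the yolk syncytial layer, a tissue that secretes lipoproteins, gave 6 rises (3 without 18 hpf replicate 1, 14 hpf replicate 1 or 14 hpf replicate 2) and 3 falls (0 without 18 hpf replicate 1, 18 hpf replicate 2 or 14 hpf replicate 1) among 30 genes in knockdown embryos at 18 hpf against 14 hpf, with a median log2 change of 0.42. SLC40A1, the iron exporter ferroportin, had 29.1 and 31.5 CPM at 18 hpf, against 5.17 and 4.33 CPM at 14 hpf (log2 fold change 2.67, SE 0.41, adjusted p = 0.00041). apoa4a, an apolipoprotein, had 17.6 and 25.6 CPM at 18 hpf, against 2.58 and 3.81 CPM at 14 hpf (log2 fold change 2.73, SE 0.43, adjusted p = 0.00047). The gene apoea had 14.1 and 37.2 CPM at 18 hpf, against 0.215 and 1.04 CPM at 14 hpf (log2 fold change 5.22, SE 0.72, adjusted p = 0.00049). apoeb, the apolipoprotein with the highest CPM of the list, had 2150 and 1894 CPM at 18 hpf, against 3032 and 2518 CPM at 14 hpf and did not pass (adjusted p = 0.27).

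Claudins seal the gaps between epithelial cells, and their share called, 16%, was near the 13.6% of all genes, with a median of 0.02. Of 25 claudin and tight junction genes 4 rose (0 without 14 hpf replicate 2 and 1 without 18 hpf replicate 1 or 14 hpf replicate 1) and none fell (1 without either control library of 18 hpf). CLDN5 (ENSDARG00000014059), a claudin of brain and vessel barriers, had 13.1 and 9.08 CPM at 18 hpf, against 1.94 and 1.21 CPM at 14 hpf (log2 fold change 2.83, SE 0.58, adjusted p = 0.0039, lost without 14 hpf replicate 2 (adjusted p = 0.064)). The gene cldn3d had 10.3 and 6.30 CPM at 18 hpf, against 1.94 and 2.25 CPM at 14 hpf (log2 fold change 1.98, SE 0.51, adjusted p = 0.017, lost without 18 hpf replicate 1, 14 hpf replicate 1 or 14 hpf replicate 2 (adjusted p = 0.093 to 0.17)). GJA1, a connexin of gap junctions, had 13.5 and 10.19 CPM at 18 hpf, against 0.431 and 0.866 CPM at 14 hpf (log2 fold change 4.11, SE 0.62, adjusted p = 0.00033).

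Of 26 genes of transposon silencing and DNA methylation 3 were called (11.5%, near the 13.6% of all genes), 1 higher and 2 lower (1 without any single knockdown library). Both named here encode de novo DNA methyltransferases. DNMT3A (ENSDARG00000015566) had 71.0 and 66.2 CPM at 18 hpf, against 16.4 and 24.6 CPM at 14 hpf (log2 fold change 1.74, SE 0.28, adjusted p = 0.00062), while dnmt3bb.2 had 113 and 129 CPM at 18 hpf, against 197 and 189.5 CPM at 14 hpf (log2 fold change -0.68, SE 0.13, adjusted p = 0.0024). Of 19 genes of cell cycle exit 2 rose (1 without any single knockdown library or either control library of 14 hpf) and 2 fell (1 without 18 hpf replicate 1, 18 hpf replicate 2 or 14 hpf replicate 1), with a median of -0.10. The gene tob1b, an antiproliferative factor, had 93.0 and 71.3 CPM at 18 hpf, against 37.9 and 40.4 CPM at 14 hpf (log2 fold change 1.07, SE 0.18, adjusted p = 0.00087). Its relative TOB1 (ENSDARG00000032619) had 51.8 and 40.2 CPM at 18 hpf, against 74.1 and 69.98 CPM at 14 hpf (log2 fold change -0.64, SE 0.13, adjusted p = 0.0038, lost without 18 hpf replicate 2 (adjusted p = 0.072)). BTG2, of the same antiproliferative family, had 310 and 333 CPM at 18 hpf, against 443 and 409.8 CPM at 14 hpf (log2 fold change -0.41, SE 0.10, adjusted p = 0.012, lost without 18 hpf replicate 1 or 14 hpf replicate 1 (adjusted p = 0.13)).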
